A study of Mus musculus with 8 samples.

Results

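The clustered protocadherins were followed as the 57 genes whose symbols place them in the Pcdha, Pcdhb or Pcdhg cluster, out of 55418 genes listed. They comprised 13 members of the α cluster, 22 of the β cluster and 22 of the γ cluster. RNA-seq was carried out in mouse E14 embryonic stem cells (ESCs), a feeder-independent line from an early embryo, transfected with plasmids that express a short hairpin RNA (shRNA) and a puromycin resistance gene. The 4 groups of 2 libraries differed in the shRNA: luciferase (Control), Hira (Hira_KD), Ubn1 (Ubn1_KD) or Ubn2 (Ubn2_KD). Each group, Control included, received 1000 ng of plasmid and was selected from 24 h with 1 µg/ml puromycin for 3 days, so that each library came from a selected population and not from a clone. Nothing in the sources used here ties the 2 libraries of a group to separate cultures, and p-values therefore measure the spread between those libraries, which may be technical.

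Clustered protocadherins are cadherin-like membrane proteins best known in neurons, where each cell uses its own set of isoforms and homophilic binding between like sets underlies self-recognition. Each α and γ gene has its own large first exon, with its own promoter, that is spliced to a few constant exons common to the whole cluster, whereas each β gene stands alone in a single exon. Most of these promoters are bound by CTCF and are silenced by DNA methylation and heterochromatin when unused, and the C-type isoforms at the 3′ ends of the α and γ clusters (Pcdhac1, Pcdhac2, Pcdhgc3, Pcdhgc4 and Pcdhgc5) differ from the other members, the alternates, in their regulation. Hira, Ubn1 and Ubn2 belong to the HIRA complex, a histone chaperone that places a replacement form of histone H3 in chromatin outside replication.

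In the GRCm38 mouse genome the 3 clusters lie in tandem on chromosome 18, on the plus strand. The α genes span bases 36930184 to 37187661, the β genes 37264938 to 37524479 and the γ genes 37661793 to 37841873. The γ members share 2116 exon bases and the α members 2860, next to a median of 2629.5 and 2489 exon bases of their own. Of the 57 symbols, 56 matched 1 annotated gene, and Pcdha11 matched more than 1, so that its position and length are uncertain.

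Total counts on genes ranged from 19710040 to 32706053 per library. Hira fell by 3.22 on the log2 scale in Hira_KD (edgeR quasi-likelihood test, adjusted p = 5.57e-15), Ubn1 by 1.03 in Ubn1_KD (adjusted p = 4.02e-07) and Ubn2 by 0.90 in Ubn2_KD (adjusted p = 7.2e-07). The ESC regulators Pou5f1 and Nanog were high in each library, at 941 to 1255 and 424 to 598 CPM (counts per 1000000 counts of a library, with library sizes scaled by TMM over the 8 libraries).

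The γ cluster held nearly all clustered protocadherin reads. As listed, each γ member had between 57.5 CPM in Control 1 and 113 CPM in Hira_KD 2, while α members lay between 0.307 and 1.88 CPM and β members between 0 and 1.23 CPM. Averaged over the 8 libraries, 22 of 22 γ members, 2 of 13 α members and 0 of 22 β members reached 1 CPM. With reads in shared exons counted once for each cluster, γ still took 94.5% to 96.1% of the counts on the 3 clusters in a library.

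**Figure D1:**
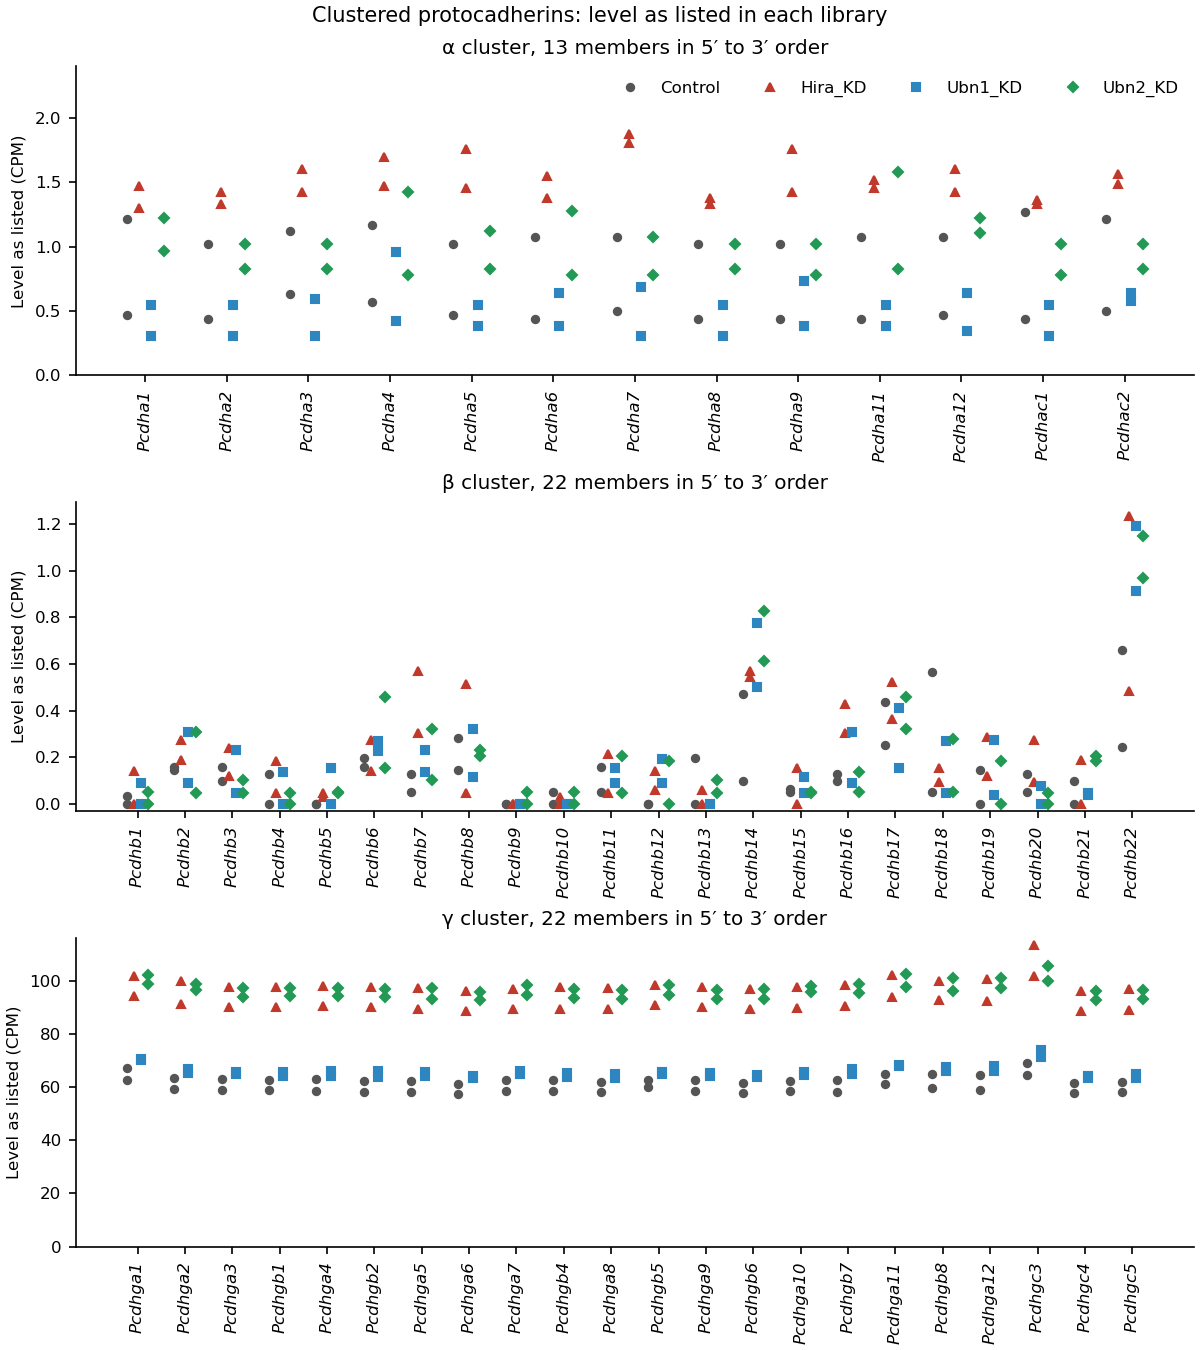
Level as listed (CPM, linear axes) of each of the 57 members, in 5′ to 3′ order along the α, β and γ clusters; each point is 1 library, and colours and symbols mark the 4 groups. The 22 γ members run almost level within a library, with the Hira_KD and Ubn2_KD points above 88 CPM and the Control and Ubn1_KD points at most at 74.1 CPM, and α and β members lie under 2 CPM.

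The near-equal levels of the γ members came from their shared exons. In Control 1 the 22 counts ran from 1181 to 1328, and over the 8 libraries the lowest member had 84.7% to 92.6% of the count of the highest. A read in a constant exon therefore appeared under every γ member, and the 13 α members showed the same at lower counts, 21 to 26 in Control 1. The setting for reads that overlap several genes is not given in the sources used here. A count of γ members called thus largely repeats 1 measurement, and the cluster was split accordingly: the lowest count in a library was taken as the level of the shared exons, and what each member had above it as its own-exon count. Own-exon counts are too low by whatever the lowest member had of its own. The lowest γ member was Pcdhga6 in 7 of the 8 libraries (tied with Pcdhgc4 in Ubn1_KD 2) and Pcdhgc5 in Ubn1_KD 1.

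After Hira depletion, the γ cluster rose about 1.5-fold over Control. The shared γ exons had 1181 and 1948 counts in Control and 2921 and 2023 in Hira_KD, that is 57.5 and 61.2 CPM against 88.4 and 96.0 CPM. Both Hira_KD libraries were above both Control libraries, with a gap wider than the spread within either group. The log2 fold change was 0.61 ± 0.08 (SE, n = 2 against 2; edgeR, adjusted p = 6.96e-06).

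As listed, 24 of the 38 members tested after Hira depletion were called higher (adjusted p under 0.05 and fold over 1.5) and 0 lower, where 10.8% of the 19035 genes tested were called higher and 5.4% lower. The 24 were 21 γ members, at log2 fold changes up to 0.67 for Pcdhgc3, and the α members Pcdha7 (1.27, adjusted p = 0.0199), Pcdha5 (1.14, adjusted p = 0.0467) and Pcdha9 (1.16, adjusted p = 0.047). Pcdhga1 passed on p with a fold of 1.49. The median over the 38 members was 0.62, against 0.01 over all genes tested. The γ change sat close to the fold threshold: without Hira_KD replicate 2 only 1 member was called and without Control replicate 1 only 12, although the shared γ exons stayed higher, by 0.55 (adjusted p = 1.12e-06) and 0.57 (adjusted p = 7.21e-06).

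After Ubn2 depletion, the shared γ exons reached a level close to that after Hira depletion. They had 2082 and 1816 counts, or 95.7 and 92.6 CPM, again above both Control libraries. The log2 fold change over Control was 0.66 ± 0.08 (SE; edgeR, adjusted p = 7.01e-07). As listed, 22 of 37 members tested were called higher and 0 lower, where 9.59% of 18219 genes were called higher and 8.75% lower. The called members were the 22 γ members, between 0.62 and 0.68, and neither the 13 α nor the 2 β members tested were among them. Their count stayed between 20 and 23 with any 1 library left out.

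After Ubn1 depletion, no clustered protocadherin was called. The shared γ exons had 1387 and 1672 counts, or 63.2 and 64.2 CPM, slightly above Control, and the difference was within the error at 0.10 ± 0.10 (SE; edgeR, adjusted p = 0.603). Of 37 members tested, edgeR called 0 in either direction, against 1.53% of 18373 genes called higher and 1.56% called lower. Of these members 1 had an unadjusted p under 0.05, where 4026 of the 18373 genes did, and DESeq2 also called 0 members.

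Direct comparisons of the depletions gave a small difference between Hira and Ubn2 for the shared γ exons. Hira_KD and Ubn2_KD differed by -0.02 ± 0.08 (log2, SE; edgeR, adjusted p = 0.829). Hira_KD was above Ubn1_KD by 0.54 ± 0.10 (adjusted p = 0.000233) and Ubn2_KD above Ubn1_KD by 0.56 ± 0.09 (adjusted p = 0.000296). Both differences passed on p and missed the fold of 1.5. The comparisons of Hira_KD, Ubn1_KD and Ubn2_KD with Control share the same 2 Control libraries.

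**Figure D2:**
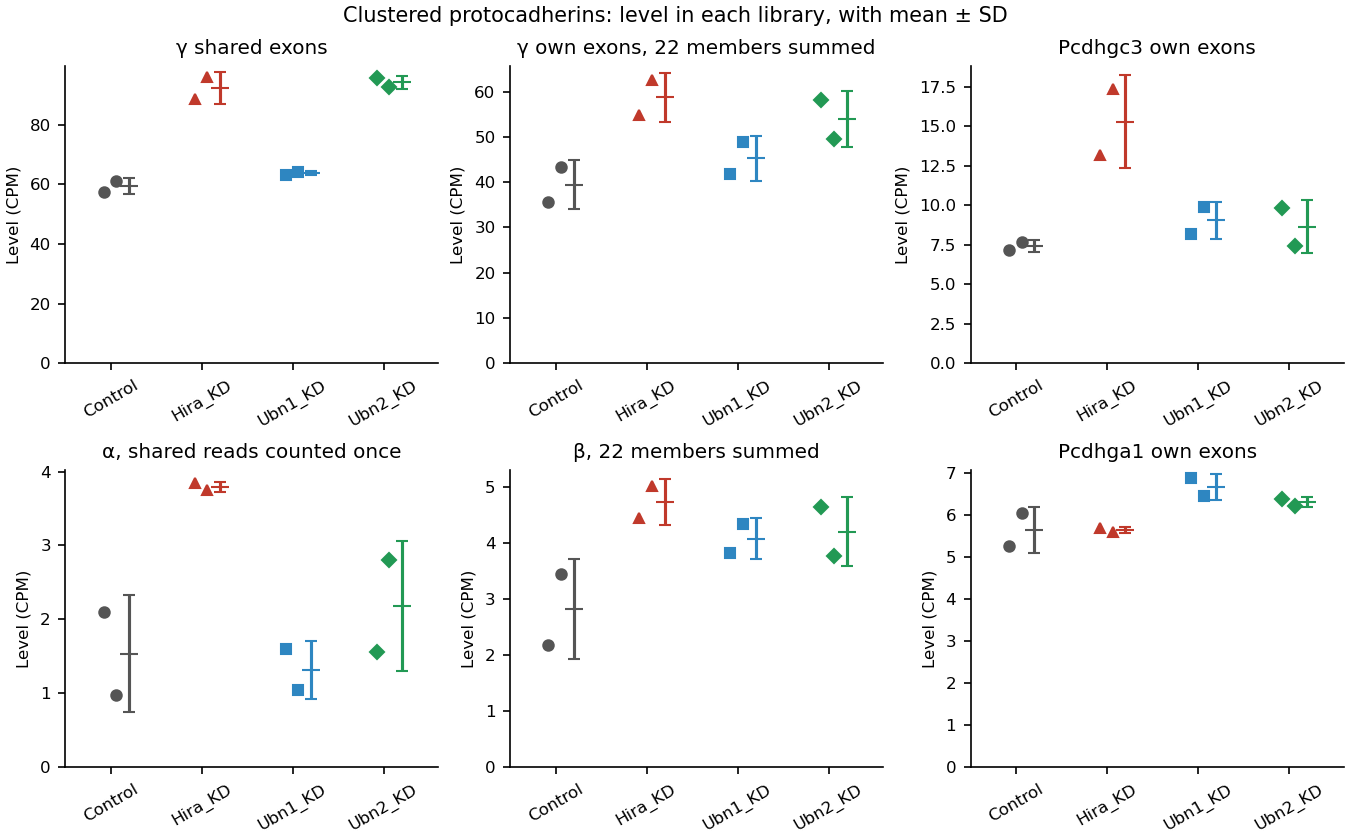
Level (CPM, axes from 0) in each of the 8 libraries of the shared γ exons, the summed own exons of 22 γ members, the own exons of Pcdhgc3 and Pcdhga1, the α cluster with shared reads counted once and the summed β members; points are libraries and bars the mean ± SD of each group (n = 2). The shared γ exons are high in Hira_KD and Ubn2_KD, Pcdhgc3 is highest in both Hira_KD libraries, and Pcdhga1 stays between 5.26 and 6.88 CPM.

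Own-exon counts, which cover all exon bases a member does not share with the whole cluster, differed between γ members. Summed over the 22 members, own-exon counts stood at 39.4 ± 5.42 CPM in Control (SD, n = 2 here and for the group values that follow), 58.7 ± 5.38 in Hira_KD, 45.3 ± 4.98 in Ubn1_KD and 53.9 ± 6.15 in Ubn2_KD. In Control the members differed widely: Pcdhgc3 was the highest at 7.43 ± 0.385 CPM, followed by Pcdhga1 at 5.65 ± 0.55, Pcdhga11 at 3.78 ± 0.0388 and Pcdhgb8 at 2.84 ± 0.918, whereas Pcdhgc4 had 0.206 ± 0.153. Per length, the median γ member had 0.377 ± 0.0765 CPM per kb of own exon in Control, the median β member 0.0259 ± 0.0123 and the median α member 0.0161 ± 0.00497.

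Pcdhgc3, the C-type isoform with the most reads, had its highest levels after Hira depletion. Its own exons held 147 and 245 counts in Control, 436 and 366 in Hira_KD, 180 and 257 in Ubn1_KD and 214 and 146 in Ubn2_KD. In CPM these were 7.16 and 7.70, then 13.2 and 17.4, then 8.21 and 9.87, and finally 9.84 and 7.44. Both Hira_KD libraries lay above the other 6, and Ubn2_KD overlapped both Control and Ubn1_KD.

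Pcdhgc3 own-exon counts rose after Hira depletion by 1.01 ± 0.17 (log2, SE; edgeR, adjusted p = 6.84e-05). The difference after Ubn2 depletion was 0.22 ± 0.18 (adjusted p = 0.358) and after Ubn1 depletion 0.28 ± 0.18 (adjusted p = 0.382). Tested directly, Hira_KD exceeded Ubn2_KD by 0.82 ± 0.18 (adjusted p = 0.00258) and Ubn1_KD by 0.76 ± 0.17 (adjusted p = 0.0022). The last of these was no longer called without Hira_KD replicate 2 (0.55, adjusted p = 0.0592). Pcdhgc3 made up 19.0 ± 1.63% of γ own-exon counts in Control, 25.9 ± 2.64% in Hira_KD, 19.9 ± 0.403% in Ubn1_KD and 16.0 ± 1.32% in Ubn2_KD.

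BC037039, an antisense gene on the minus strand, overlaps the own exons of Pcdhgc3. Its counts were 106 and 166 in Control and 301 and 254 in Hira_KD, and its log2 fold change was 1.00 ± 0.19 (SE; edgeR, adjusted p = 0.000328). The counting is not stated to use strand, so that Pcdhgc3 and BC037039 may in part hold the same reads.

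After Ubn2 depletion, 4 of the 6 γ members called on own exons lay among the last 6 alternates at the 3′ end. Of the 21 members tested on own-exon counts, 6 were called higher and 0 lower, where 9.54% of 18205 genes were called higher and 8.74% lower. In the order of the cluster they were Pcdhga2, Pcdhga7, Pcdhga10, Pcdhgb7, Pcdhga11 and Pcdhga12. Without Control replicate 1 the count was 2.

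Pcdhga10 had 1.12 and 1.04 CPM in Control, 1.18 and 1.57 in Hira_KD, 1.23 and 1.34 in Ubn1_KD and 2.3 and 3.06 in Ubn2_KD. Both Ubn2_KD values were above the other 6. It rose by 1.31 ± 0.33 over Control (log2, SE; edgeR, adjusted p = 0.00328) and by 1.05 ± 0.33 over Ubn1_KD (adjusted p = 0.0364), and it was lower in Hira_KD than in Ubn2_KD, at -0.97 ± 0.33 (adjusted p = 0.0309). The call against Control held with any 1 library left out. The call against Ubn1_KD, the only one of 22 members in that comparison (4.62% of 18192 genes called higher, 4.07% lower), was lost without either Ubn1_KD library or Ubn2_KD replicate 2, and that against Hira_KD without Hira_KD replicate 1 or Ubn2_KD replicate 2.

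Pcdhgb7 had 0.779 and 1.48 CPM in Control and 2.90 and 2.85 in Ubn2_KD, a rise of 1.29 ± 0.33 (log2, SE; edgeR, adjusted p = 0.00395). Its levels in Hira_KD, 1.82 and 2.28 CPM, and in Ubn1_KD, 1.73 and 2.73 CPM, were also above Control, with differences that did not pass (0.78, adjusted p = 0.105, and 0.94, adjusted p = 0.112). Pcdhga12 had 1.51 and 3.27 CPM in Control and 5.29 and 4.79 in Ubn2_KD, a rise of 1.02 ± 0.28 (adjusted p = 0.00618). Without Control replicate 1, the lower of the 2, this was 0.62 and no longer called. Pcdhga11 rose by 0.62 ± 0.22 (adjusted p = 0.0299), with nearly the same estimate after Hira depletion, 0.57 ± 0.22 (adjusted p = 0.0464), which missed the fold. The Pcdhga11 call was lost without either Control library or Ubn2_KD replicate 1 (lowest estimate 0.40), whereas that of Pcdhgb7 held without any 1 library.

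Gm26672, an antisense gene, covers own exons of Pcdhga10, Pcdhgb7, Pcdhga11 and Pcdhga12, and no exon base of Pcdhga10 is free of other genes. Gm26672 had 83 and 134 counts in Control, 194 and 143 in Hira_KD, 121 and 133 in Ubn1_KD and 176 and 182 in Ubn2_KD. It was called higher after Ubn2 depletion, at 1.07 ± 0.19 (log2, SE; edgeR, adjusted p = 0.000135). Because the strand setting is not given, these may in part be the same reads as those of the 4 protocadherins, and this cannot be told.

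The 6 alternates from Pcdhgb6 to Pcdhga12, a stretch chosen after the values were seen, together made up 28.8 ± 2.88% of γ own-exon counts in Control, 30.9 ± 0.164% in Hira_KD, 32.3 ± 0.55% in Ubn1_KD and 39.4 ± 0.557% in Ubn2_KD. The 7 alternates from Pcdhga1 to Pcdhga5 took 34.8 ± 1.49% in Control, 29.1 ± 1.84% in Hira_KD, 34.3 ± 0.206% in Ubn1_KD and 30.8 ± 3.28% in Ubn2_KD. Their level was not lower in the depleted groups, at 13.8 ± 2.48 CPM in Control, 17.0 ± 0.482 in Hira_KD, 15.5 ± 1.80 in Ubn1_KD and 16.5 ± 0.129 in Ubn2_KD. With 2 libraries a group, an exact permutation test of such shares cannot go below p = 0.33, and none was made.

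**Figure D3:**
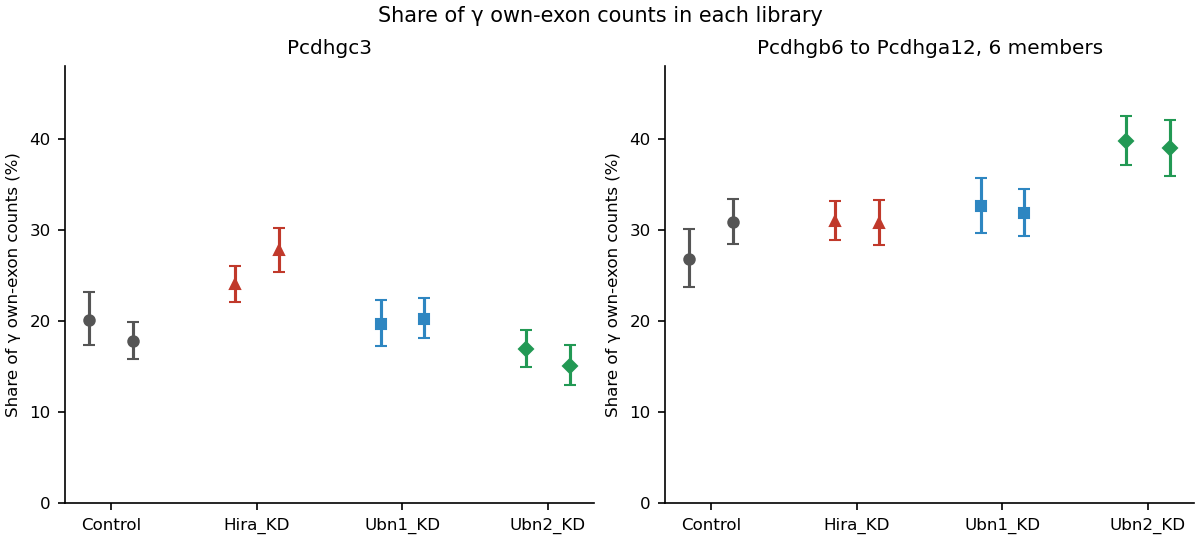
Share of γ own-exon counts (%, axes from 0) held by Pcdhgc3 and by the 6 alternates Pcdhgb6 to Pcdhga12 in each library; bars are 95% Wilson intervals, which cover counting error only. Pcdhgc3 holds 24.0% and 27.8% in the Hira_KD libraries and 15.0% to 20.2% in the other 6; the 6 alternates hold 39.8% and 39.0% in the Ubn2_KD libraries and 26.8% to 32.6% in the other 6.

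Hira depletion moved few alternates past the threshold. Of 24 members tested on own-exon counts, 4 were called higher and 0 lower, where 10.6% of 19023 genes were called higher and 5.47% lower: Pcdhgc3, Pcdhga2, Pcdhgb6 and, in the α cluster, Pcdha7. Without Control replicate 1 only 1 was called, and without Hira_KD replicate 2 only 2. Pcdhga2 had 1.61 and 2.11 CPM in Control, 2.91 and 3.94 in Hira_KD, 2.19 and 2.53 in Ubn1_KD and 2.85 and 3.77 in Ubn2_KD. It rose alike after Hira depletion (0.83 ± 0.29, log2, SE; edgeR, adjusted p = 0.0308) and Ubn2 depletion (0.81 ± 0.29, adjusted p = 0.0293), and the 2 depletions differed by 0.04 ± 0.27 (adjusted p = 0.919). Both Pcdhga2 calls were lost without Control replicate 1 and without replicate 2 of the depletion.

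Pcdhgb6 was called after Hira depletion from low values, 0.195 and 0.283 CPM in Control against 0.696 and 0.759 in Hira_KD (1.52 ± 0.57, log2, SE; edgeR, adjusted p = 0.0424), and this call was lost with any 1 of the 4 libraries left out. In that comparison Pcdhgb6 passed the filter on low counts only through its Hira_KD libraries, and it was not tested in Ubn2_KD against Control. Of the 20 γ members tested on own exons, 17 had estimates above 0 after Hira depletion, 12 after Ubn1 depletion and, of 19, 15 after Ubn2 depletion. No γ member was called on own exons after Ubn1 depletion by edgeR or by DESeq2 (1.53% of 18360 genes were called higher and 1.54% lower). Among these γ members 1 had an unadjusted p under 0.05, where 4023 of the 18360 genes did.

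Pcdhga7 and Pcdhga9, alternates in the middle of the cluster, were among the members called between Hira_KD and Ubn2_KD on own exons. Pcdhga7 had 0.974 and 1.26 CPM in Control, 1.06 and 0.996 in Hira_KD and 2.53 and 2.09 in Ubn2_KD. It rose after Ubn2 depletion by 1.03 ± 0.34 (log2, SE; edgeR, adjusted p = 0.0189), and Hira_KD lay below Ubn2_KD by -1.15 ± 0.34 (adjusted p = 0.0162). Pcdhga9 went the other way, with 1.73 and 1.57 CPM in Hira_KD and 0.736 and 0.561 in Ubn2_KD, a difference of 1.34 ± 0.41 (adjusted p = 0.019), while neither depletion differed from Control beyond the threshold (0.53, adjusted p = 0.273, and -0.78, adjusted p = 0.179). The difference in Pcdhga7 lost its call without Ubn2_KD replicate 1, as did its rise over Control, which was also lost without Control replicate 1, and the difference in Pcdhga9 lost its call without Hira_KD replicate 1 or Ubn2_KD replicate 2.

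In all, of 23 members tested on own exons, 3 were called higher and 2 lower in Hira_KD than in Ubn2_KD. This was near the share over all genes, 12.0% of 18551 called higher and 5.63% lower. The number called changed with 1 library left out. As listed, where the shared exons dominate, the only one was Pcdha7 (1.00, adjusted p = 0.0473), against 12.0% and 5.61% of 18563 genes, and it was lost without any 1 library.

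Pcdhga1, the most 5′ γ member and the highest alternate in Control, was not called on own exons in any of the 6 comparisons. Its own-exon level was 5.26 and 6.03 CPM in Control, 5.69 and 5.6 in Hira_KD, 6.88 and 6.45 in Ubn1_KD and 6.39 and 6.22 in Ubn2_KD. The estimates against Control were -0.03 ± 0.20 after Hira, 0.23 ± 0.20 after Ubn1 and 0.15 ± 0.19 after Ubn2 depletion (log2, SE; edgeR, adjusted p of 0.937, 0.538 and 0.559). Of the other C-type γ isoforms, Pcdhgc5 lay between 0 and 0.901 CPM and Pcdhgc4 between 0 and 0.314 CPM. Both were among the lowest γ members, and the estimates for Pcdhgc5 after Hira and Ubn2 depletion were 0.14 ± 0.50 and 0.17 ± 0.50 (adjusted p of 0.853 and 0.814).

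**Figure D4:**
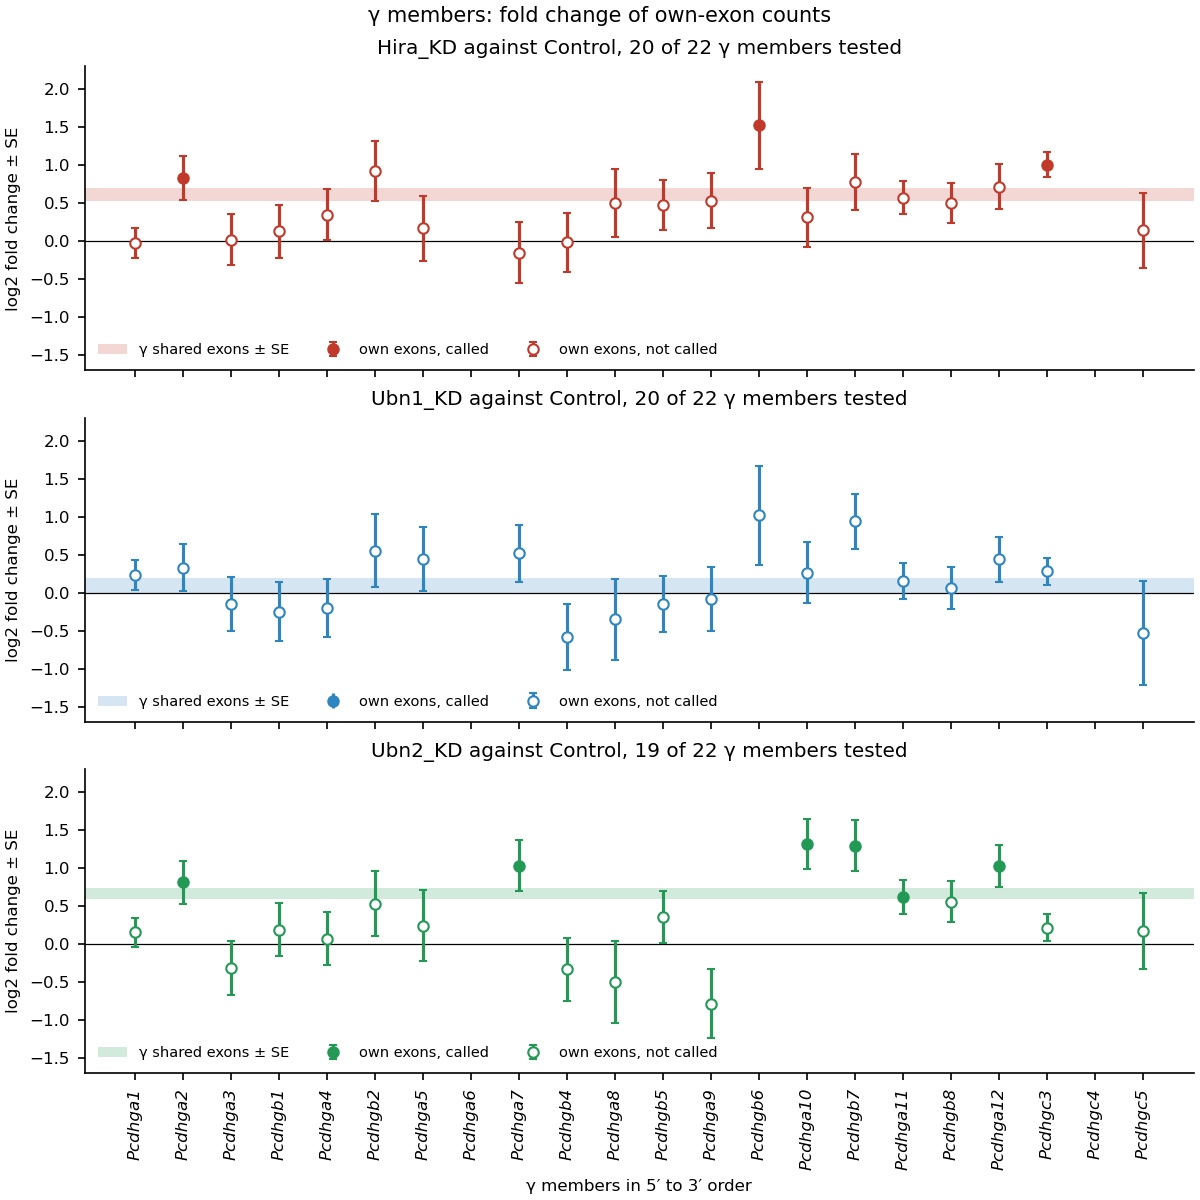
Log2 fold change (± SE) over Control of the own-exon counts of the γ members that passed the filter on low counts, in 5′ to 3′ order, after Hira, Ubn1 and Ubn2 depletion; filled points were called, and the band is the estimate ± SE for the shared γ exons. The shared exons lie at 0.61, 0.10 and 0.66. After Hira depletion Pcdhgc3 (1.01) and Pcdhgb6 (1.52, from low counts) stand above the band. After Ubn2 depletion Pcdhgc3 is among the members below it, and Pcdhga10 and Pcdhgb7 are among those above it.

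Position along the cluster went weakly with the change. Across the 22 γ members as listed, Spearman's rho between 5′ to 3′ order and log2 fold change was 0.41 after Hira, 0.09 after Ubn1 and 0.26 after Ubn2 depletion, and across the members tested on own exons it was 0.39 (n = 20), 0.05 (n = 20) and 0.26 (n = 19). With all members that had a value on own exons, tested or not, the 3 values were 0.21 (n = 21), -0.12 (n = 22) and 0.15 (n = 21). Order and level per kb of own exon in Control had a rho of -0.16 across the 22 γ members and 0.17 across the 22 β members. The points share libraries, exons and depth, and genes are not independent replicates.

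The α cluster was low, and its shared exons did not pass the test against Control after any depletion. With shared reads counted once, it had 2.09 and 0.974 CPM in Control, 3.84 and 3.75 in Hira_KD, 1.60 and 1.04 in Ubn1_KD and 1.56 and 2.80 in Ubn2_KD. Both Hira_KD libraries were above the other 6, and Control spread more than 2-fold. The log2 ratio of the summed α counts as listed, Hira_KD over Control, was 0.93, and it was 0.45 without Control replicate 2 and 1.65 without Control replicate 1. The shared α exons, at 8 to 43 counts a library, differed from Control by 0.89 ± 0.46 after Hira (log2, SE; edgeR, adjusted p = 0.138), -0.73 ± 0.58 after Ubn1 (adjusted p = 0.502) and 0.36 ± 0.50 after Ubn2 depletion (adjusted p = 0.595). Hira_KD exceeded Ubn1_KD by 1.64 ± 0.49 (adjusted p = 0.0151).

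As listed, 13 of 37 members were called higher in Hira_KD than in Ubn1_KD, against 9.52% of 18819 genes (3.16% lower). These were the 13 α members, which share those counts, at 1.23 to 1.92. The count was 22 without Hira_KD replicate 1, 7 without Hira_KD replicate 2 and 1 without Ubn1_KD replicate 2. On adjusted p alone 35 passed as higher, the 22 γ members among them, against 14.2% of all genes passing as higher. On own exons 2 of 23 were called, Pcdhgc3 and Pcdha7, against 9.43% of 18807 genes (3.15% lower), and 0 without Hira_KD replicate 2. In Ubn2_KD against Ubn1_KD, edgeR called 0 of 37 as listed (4.61% of 18205 genes higher, 4.09% lower), and DESeq2 called 0 as well. In that comparison 27 of the 37 members had an unadjusted p under 0.05, where 5536 of the 18205 genes did. The 27 were the 22 γ members and 5 α members, which largely repeat the shared counts of their cluster. The 22 γ members passed as higher on adjusted p below the fold, against 8.6% of all genes passing as higher on adjusted p alone.

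Pcdha7 was the only α member with enough own-exon counts for a test after Hira depletion. It passed the filter on low counts only through its Hira_KD libraries, and it was not tested in Ubn1_KD or Ubn2_KD against Control. Its calls thus rest on the group that let it be tested and are no separate support for a rise. Its own exons held 1 and 2 counts in Control, 19 and 10 in Hira_KD, 3 and 0 in Ubn1_KD and 0 and 1 in Ubn2_KD. Over both libraries the 29 counts in Hira_KD against 3 in Control made a ratio of 9.35 (exact 95% interval of the counts, 2.90 to 48), and edgeR called it (adjusted p = 0.00431). It was also called against Ubn2_KD (adjusted p = 0.00505) and Ubn1_KD (adjusted p = 0.0124), and the call was lost against Control without either Control library, against Ubn2_KD without its replicate 1 and against Ubn1_KD without Hira_KD replicate 2 or Ubn1_KD replicate 2. The C-type α isoforms were barely seen: Pcdhac1 had 0 to 0.243 CPM and Pcdhac2 0 to 0.269 CPM on own exons, and neither was tested. Gene copies are close in this family, and up to 11.1% of the 100-base stretches of a first exon (Pcdha11) occurred in another member.

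The β members were near the limit of detection. Their 22 counts summed to 45 and 110 in Control, 147 and 106 in Hira_KD, 84 and 113 in Ubn1_KD and 101 and 74 in Ubn2_KD. In CPM the sums were 2.19 and 3.46, then 4.45 and 5.03, then 3.83 and 4.34, and finally 4.64 and 3.77. The depleted libraries were each above both Control libraries, and Control 2 was closer to the lowest of them, Ubn2_KD 2, than to Control 1.

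Pcdhb22 and Pcdhb14, the β members with the highest CPM averaged over the 8 libraries, were tested in the comparisons with Control and Pcdhb17 after Hira depletion as well, and none was called. Pcdhb22 had 0.243 and 0.66 CPM in Control, 0.484 and 1.23 in Hira_KD, 0.912 and 1.19 in Ubn1_KD and 1.15 and 0.969 in Ubn2_KD, with estimates over Control of 0.75 ± 0.57, 1.13 ± 0.51 and 1.13 ± 0.51 (log2, SE; edgeR, adjusted p of 0.326, 0.181 and 0.082). The other 19 β members had too few counts for a test, and 3 to 7 of the 22 had 0 counts in a library, so a change in them was not detectable at this depth.

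Of 11 protocadherins outside the clusters, 3 or 4 were tested in each comparison with Control. Pcdh1, at 9.83 and 11.3 CPM in Control, rose to 14.9 and 20.5 CPM after Hira depletion (0.71, adjusted p = 0.00151), and Pcdh8 rose from 0.487 and 0.503 to 1.48 and 2.23 CPM (1.86, adjusted p = 0.00203). Pcdh7 had 0 counts in Control and 40 over the Ubn2_KD libraries, at least 16.9-fold higher against a floor of 3 counts over the group. It passed the filter on low counts only through those Ubn2_KD libraries. After Ubn1 depletion 0 of 3 were called. Of 12 genes next to the clusters, Fchsd1 and Rell2 rose after Hira depletion (0.66 and 0.64, adjusted p of 0.000349 and 0.00526), and edgeR called 0 of 12 and 0 of 11 after Ubn1 and Ubn2 depletion. The median of the 11 neighbours tested after Hira depletion was -0.18, against 0.01 over all genes, with 0 called lower.

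Of 12 genes for CTCF and cohesin, the loop-forming factors at these promoters, edgeR called 0 after each depletion, with medians of -0.01, 0.00 and -0.02 and summed levels of 1616 to 1849 CPM. Of 16 genes for DNA methylation and heterochromatin, 3 fell after Hira depletion: Dnmt3l, a cofactor of DNA methyltransferases (-0.94, adjusted p = 1.95e-07), Uhrf1, which maintains methylation through division (-0.67, adjusted p = 1.68e-06), and Tet1, which oxidises methylated cytosine (-0.63, adjusted p = 6e-05). The list summed to 3635 and 4287 CPM in Hira_KD, below the 5152 to 5696 CPM of the other 6 libraries. Part of this fall was Trim28, at a mean of 1834 CPM in Control and 1285 in Hira_KD. Its change of -0.53 (edgeR, adjusted p = 5.05e-05) missed the fold. No gene of the list was called after Ubn1 or Ubn2 depletion. Whether these levels had a part in the protocadherin changes was not tested.

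Of 17 genes that process clustered protocadherins or act below them, edgeR called Ptk2b, a kinase held in check by these proteins, after Hira depletion (0.62, adjusted p = 0.00108), called 0 after Ubn1 depletion, and found Wasf3 (-0.78, adjusted p = 2.57e-07) and Cyfip2 (-0.86, adjusted p = 1.73e-06), parts of the WAVE complex, lower after Ubn2 depletion.

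Markers of other cell types differed between the groups, in patterns that varied from list to list. The 10 neuron markers summed to 424 and 426 CPM in Control, 538 and 545 in Hira_KD, 435 and 462 in Ubn1_KD and 284 and 302 in Ubn2_KD. After Hira depletion 4 of the 9 tested were higher (Tubb3 0.86, Map2 1.07 and Neurod1 0.68 among them) and Elavl4 was lower, and after Ubn2 depletion 4 of 8 were lower, Elavl3 (-1.31) and Stmn2 (-0.65) among them. After Ubn1 depletion Tubb3 was higher (0.62) and Neurod1 lower (-0.94). Dcx, which defines young neurons, was at 0 in the 8 libraries. Most of each sum was Stmn2, at a mean of 287 CPM in Control, 319 in Hira_KD, 272 in Ubn1_KD and 183 in Ubn2_KD. Tubb3 came next, at 88.9, 164, 137 and 81.8 CPM. Not all markers rose in Hira_KD: Elavl3 went from a mean of 30.4 CPM in Control to 27.3 and Rbfox3 from 1.19 to 0.951.

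The 8 neural progenitor markers summed to 22.3 to 24.0 CPM in Control, 49.4 to 51.6 in Hira_KD, 24.1 to 26.0 in Ubn1_KD and 38.2 to 42.1 in Ubn2_KD, led by Nes (1.39 and 0.90 after Hira and Ubn2 depletion). Most of each sum was Nes, at a mean of 15.9 CPM in Control, 42.3 in Hira_KD, 17.3 in Ubn1_KD and 29.7 in Ubn2_KD. In each group 5 of the 8 markers had a mean under 1 CPM. After Hira depletion Pax6 had an estimate of 0.49 and Sox1 of -0.17, and neither was called. Pax6 was called after Ubn2 depletion as well, 1 of 3 tested was called after Hira and 0 of 3 after Ubn1 depletion, and Neurog2 was at 0 in both Control and both Ubn2_KD libraries.

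The 8 heart muscle markers summed to 142 and 234 CPM in Ubn2_KD and to 12.4 to 19.3 CPM in the other 6 libraries. Of 8 tested after Ubn2 depletion, 6 were higher, Actc1, Tnnt2 and Myh6 first, and Myl7 was lower (-0.95), as it was after Hira depletion (-0.86, 1 of 4 called). Actc1, Tnnt2, Tnni1, Csrp3 and Nppa, at means of 0 to 0.43 CPM in Control, passed the filter on low counts there only through their Ubn2_KD libraries. Myh6 had a mean of 4.99 CPM in Control and 52.0 in Ubn2_KD. The test called 0 of 3 after Ubn1 depletion. The 8 fibroblast markers summed to 24.5 to 25.6 CPM in Control, 34.7 to 36.1 in Hira_KD, 19.0 to 23.3 in Ubn1_KD and 27.6 to 32.8 in Ubn2_KD. Called were Col1a1 higher after Hira (1 of 3), Pdgfra lower after Ubn1 (1 of 3), and after Ubn2 depletion 3 higher, Col3a1, Col1a2 and Postn, and Thy1 lower, of 6. Col3a1, Dcn, Lum and Postn were at 0 in Control. Col3a1, Postn and Col1a2, the last at a mean of 0.335 CPM in Control, passed the filter on low counts only through their Ubn2_KD libraries. Their calls thus rest on the group that let them be tested.

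The 8 trophoblast markers summed to 60.2 and 60.3 CPM in Control, 87.8 and 106 in Hira_KD, 59.6 to 64.2 in Ubn1_KD and 56.5 to 57.3 in Ubn2_KD. Called were Krt8, Cdx2 and Hand1 higher after Hira depletion, and Gata3 higher and Krt8 lower after Ubn2 depletion. Cdx2 and Gata3, at means of 0.11 and 0.0314 CPM in Control, passed the filter on low counts only through the depleted libraries. The 8 endoderm markers stayed between 61.5 and 78.6 CPM, with Sox17 higher after Hira and Gata6 lower after Ubn1 depletion. The 10 ESC markers summed to 7090 and 7376 CPM in Control and 6292 to 6646 in the depleted libraries, and Tdgf1 (-0.78) and Dppa5a (-0.59) were called lower after Ubn2 depletion only. Both were below Control after each depletion. Dppa5a had means of 1296 CPM in Control, 917 in Hira_KD, 895 in Ubn1_KD and 862 in Ubn2_KD, and Tdgf1 of 1544, 1287, 1168 and 900 CPM. In bulk RNA, more cells of a type and more RNA per cell cannot be told apart, and the part of these cell types in the γ levels was not tested.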

How the data were processed

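Messenger RNA libraries from total RNA of 8 samples were paired-end sequenced. The authors trimmed reads with Trim Galore, aligned them with STAR to GRCm38 and counted them on Ensembl genes with featureCounts. Versions, strand setting and the treatment of reads shared between genes are not given in the sources used here. The deposited values are raw counts per gene in 3 tables that repeat the Control libraries, with 0 differing values, so these were used once.

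Members were found by symbol and placed with GENCODE M21 of GRCm38. Members and gene lists were chosen with earlier results of these data known. Each comparison was fitted over all genes of its 4 libraries with edgeR 4.0.16 in R 4.3.3 (TMM, filterByExpr, quasi-likelihood test, Benjamini-Hochberg adjustment) and a gene was called when its fold exceeded 1.5 and its adjusted p was below 0.05; the SE is the log2 fold change divided by the square root of F. Because shared-exon reads were found under each member, own-exon counts (a member minus the lowest member of its cluster in that library, the lowest kept as 1 row) were fitted as an addition after seeing the data. Levels per kb as planned assumed unshared counting and are given from own-exon counts instead. A change of 1.5 (log2) set into 195 tested genes of simulated Hira_KD against Control counts (18624 genes) was called for 89.2%, with 2 unchanged genes called. This does not give the power for smaller changes, such as those of the shared γ exons, or for members with few counts. Named genes are members of at least 1 CPM, C-type members, up to 3 called members a cluster and comparison, and up to 3 called genes a list and depletion; others named were chosen after their values were seen. Intervals and floors cover counting error only. Alternatives were DESeq2 1.42.0 (Wald test or size factors), other filters, 1 fit of 8 libraries, the replicate number as a block and leaving out each library.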

Additional observations from a re-analysis of the deposited data

How the results depend on the processing

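Of 650 recomputed values, 549 kept their direction and their side of the threshold, or for counts stayed within 1.5 times and for levels within the spread of replicates. Own-exon counts, chosen after seeing the data, replace one measurement repeated over 22 γ members and so changed the counts of members called: from 24 to 4 higher for Hira against Control, 22 to 6 for Ubn2 against Control, 1 to 3 higher and 0 to 2 lower for Hira against Ubn2, 13 to 2 for Hira against Ubn1 and 0 to 1 for Ubn2 against Ubn1. They also moved the median level in Control to 0.0161 (α) and 0.377 CPM per kb (γ, 12.4 with all exon bases), and rho of order against level to -0.0608 (α) and -0.16 (γ, -0.23 with all exon bases), against Hira change to -0.0824 (α) and 0.21 (γ) and against Ubn1 change to -0.12 (γ).

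As listed, Hira against Ubn2 had 0 members called by DESeq2's Wald test, in 1 fit of 8 libraries and with the replicate block. Hira against Ubn1 had 35 on adjusted p alone, 2 by DESeq2 and 6 with at least 10 counts in every library, and Ubn2 against Ubn1 had 22 on adjusted p alone and 1 with no filter or with at least 10 counts. On adjusted p alone the shared γ exons were called in both (0.54 and 0.56). On own exons DESeq2 called 1 (Hira against Control), 3 (Ubn2 against Control), 1 higher and 0 lower (Hira against Ubn2), 1 (Hira against Ubn1) and 0 (Ubn2 against Ubn1); at least 10 counts left 1 for Hira against Ubn1. The causes were not tested.

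With 1 library left out, members called as listed ranged from 1 to 22 (Hira against Control), 0 to 0 (Hira against Ubn2), 1 to 22 (Hira against Ubn1) and 0 to 14 (Ubn2 against Ubn1). On own exons the ranges were 1 to 6, 0 to 1 higher and 0 to 1 lower, and 2 to 7 for Hira, Ubn1 and Ubn2 against Control, 1 to 3 higher and 1 to 2 lower for Hira against Ubn2, 0 to 3 for Hira against Ubn1 and 0 to 1 for Ubn2 against Ubn1. The shared γ exons ranged from 0.55 to 0.67 (Hira against Control), -0.0787 to 0.0337 (Hira against Ubn2, a change of sign within the error), 0.48 to 0.60 (Hira against Ubn1) and 0.54 to 0.59 (Ubn2 against Ubn1).

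Same-numbered libraries showed little common deviation (r between -0.09 and 0.08 for the 6 pairs of groups, over 17834 genes), and the main fits did not pair them. Counting error weakens such a correlation, so this check cannot show that the numbers carry no shared batch. The replicate block raised own-exon calls for Hira against Control from 4 to 7 and changed the shared γ exons by little (0.62 and 0.66 for Hira and Ubn2 against Control). Among the values of named own-exon calls, 39 lost the call, most often with 1 library left out or under DESeq2. Those of Pcdhgb7 and Pcdhga10 after Ubn2 depletion and Pcdhgc3 after Hira depletion, against Control, kept it in each alternative run. Depth limits α and β members, at 0 to 62 counts as listed.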
